A study of Mus musculus with 81 samples.

Results

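Embryonic stem (ES) cell sites opened by 36h of reprogramming were 5111 genomic regions that carried a chromatin accessibility peak in mouse embryonic fibroblasts (MEF) at 36h of factor induction and in ES cells, but not in MEF at 6h. They were chosen from the deposited peak lists. A member is a peak of the 36h bulk list of the nascent arm that overlapped, by 1 bp or more, a peak of the 36h bulk list of the mature arm and of the ES cell bulk list, and no peak of either 6h bulk list. The 36h list held 137173 peaks, of which 125836 were in both arms, and 5111 were members. Another 3 sets serve for comparison: 8148 opened sites without an ES cell peak, 48684 peaks of both 36h lists that overlapped an ES cell peak and were present at 6h, called ES cell sites open at 6h here, and 88824 ES cell peaks with no MEF bulk peak at 6h or 36h, called closed ES cell sites here. Members were chosen by these peaks at 6h, 36h and in ES cells, so their presence there is a description and was not tested.

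ATAC-seq reads accessible chromatin through the sites that a transposase can cut, and repli-ATAC-seq does so on DNA that has just been copied and has taken up the nucleotide EdU, by which it is pulled down. The 81 samples form 27 groups of 3. MEF of the cross Black6-129X1/SvJ at passages 2-3, heterozygous for Col1a1::tetOP-OKSM, R26-M2rtTA and Oct4GFP, took 2 µg/mL doxycycline for 6h, 12h or 36h. Doxycycline switches on the reprogramming factors OCT4, KLF4, SOX2 and MYC from the Col1a1 cassette, and no uninduced MEF were analysed here. EdU was given at 20 µM for 10 min, and cells were taken at once (nascent) or 2 h after label with 10 µM thymidine (mature). The DNA that the capture left unbound is the bulk signal, with 1 list per arm. At 60h, MEF stained with a division dye were sorted into the fractions Q1 to Q4, and the labels do not say which was brightest. Further MEF of the same genotype received doxycycline and, at 4 h, 5 µg/mL aphidicolin, an inhibitor of replicative DNA polymerases, for 10 h, and MEF_untreated, induced without aphidicolin, were harvested at the same 14h. Wild-type 129/Ola ES cells were followed from 0h through 9h to EpiLC (epiblast-like cells) at 48h of conversion.

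Pluripotency of mouse ES cells is held by a network of transcription factors that bind enhancers together, many of them far from promoters. In fibroblasts many of these enhancers lie in closed chromatin, and the induced factors meet them there early in reprogramming. AP-1 factors occupy many of the enhancers that fibroblasts use.

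Few of the opened ES cell sites lay at gene starts, and those that did are shown here because they are the members whose sequence could be read. A member covered the start of 36 protein-coding genes. The first 4 by 36h score are given, and L1td1 and Lef1 were added after their values were seen because they are on the pluripotency and formative lists used below. Each sequence is the RefSeq promoter of build GRCm38.p6, from 250 bases before to 50 after the start, written 5′ to 3′ on the strand of the gene. Capitals mark the bases under the 36h peak. Tgm3 (chr2:130012090-130012389, plus strand), a transglutaminase gene of skin, and Gstm6 (chr3:107953417-107953716, minus strand), a glutathione transferase gene, lay under their peaks over the whole window. Them5 (chr3:94341849-94342148, plus strand), Tomm20l (chr12:71111178-71111477, plus strand), L1td1 (chr4:98726504-98726803, plus strand) and Lef1 (chr3:131110047-131110346, plus strand) were covered in part.
Tgm3: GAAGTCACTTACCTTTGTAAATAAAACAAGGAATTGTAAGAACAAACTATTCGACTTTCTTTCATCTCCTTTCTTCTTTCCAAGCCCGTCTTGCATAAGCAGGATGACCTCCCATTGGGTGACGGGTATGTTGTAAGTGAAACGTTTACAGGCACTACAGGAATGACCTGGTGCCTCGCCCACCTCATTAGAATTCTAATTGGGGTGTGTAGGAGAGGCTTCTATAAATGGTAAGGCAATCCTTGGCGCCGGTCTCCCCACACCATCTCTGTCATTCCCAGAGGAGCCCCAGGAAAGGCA
Gstm6: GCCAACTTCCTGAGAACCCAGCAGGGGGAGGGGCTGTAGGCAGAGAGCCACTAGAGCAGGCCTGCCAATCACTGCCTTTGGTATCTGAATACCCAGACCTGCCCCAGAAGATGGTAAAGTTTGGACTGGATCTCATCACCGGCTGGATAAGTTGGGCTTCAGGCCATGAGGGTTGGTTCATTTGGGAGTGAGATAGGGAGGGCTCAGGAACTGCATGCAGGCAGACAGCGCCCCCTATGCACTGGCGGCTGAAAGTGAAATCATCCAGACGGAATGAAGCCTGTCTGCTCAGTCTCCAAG
Them5: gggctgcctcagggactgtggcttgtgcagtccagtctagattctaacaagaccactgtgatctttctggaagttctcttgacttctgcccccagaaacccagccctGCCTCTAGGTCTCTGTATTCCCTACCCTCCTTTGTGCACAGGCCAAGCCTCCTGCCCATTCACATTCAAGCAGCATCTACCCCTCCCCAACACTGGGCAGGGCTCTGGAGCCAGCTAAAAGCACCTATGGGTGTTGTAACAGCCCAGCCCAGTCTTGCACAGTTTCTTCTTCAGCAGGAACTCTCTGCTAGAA
Tomm20l: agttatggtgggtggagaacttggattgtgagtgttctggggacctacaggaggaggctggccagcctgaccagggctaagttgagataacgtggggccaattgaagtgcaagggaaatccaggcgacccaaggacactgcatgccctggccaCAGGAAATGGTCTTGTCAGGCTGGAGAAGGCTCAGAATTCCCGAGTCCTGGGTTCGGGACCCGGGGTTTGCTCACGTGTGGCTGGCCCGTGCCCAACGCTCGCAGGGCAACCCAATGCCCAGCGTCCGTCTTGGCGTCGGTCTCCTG
L1td1: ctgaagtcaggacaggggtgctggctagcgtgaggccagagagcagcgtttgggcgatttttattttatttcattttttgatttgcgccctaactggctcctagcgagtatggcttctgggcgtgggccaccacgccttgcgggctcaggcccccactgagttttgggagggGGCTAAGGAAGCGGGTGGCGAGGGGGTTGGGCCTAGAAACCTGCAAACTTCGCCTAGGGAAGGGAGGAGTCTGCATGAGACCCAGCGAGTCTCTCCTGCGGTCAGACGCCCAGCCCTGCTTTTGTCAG
Lef1: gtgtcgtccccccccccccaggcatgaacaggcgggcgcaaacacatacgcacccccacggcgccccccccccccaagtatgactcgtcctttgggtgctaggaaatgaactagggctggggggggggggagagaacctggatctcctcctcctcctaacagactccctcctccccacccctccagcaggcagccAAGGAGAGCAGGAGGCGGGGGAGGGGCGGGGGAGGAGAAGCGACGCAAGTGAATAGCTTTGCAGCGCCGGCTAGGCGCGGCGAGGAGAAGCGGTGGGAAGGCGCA
L1td1, an RNA-binding protein gene active in pluripotent cells, had no 12h peak and scored 115 in the 36h list and 1172 in the ES cell list. Lef1, a transcription factor of the WNT pathway, scored 123 at 36h, and 141 and 207 in the 12h lists of the nascent and mature arms. A score is the authors' peak caller value and ranks peaks within 1 list. It is not compared between lists. The windows are small in number and say little of the set, of which 6.48% (95% Wilson interval 5.83 to 7.18) lay within 1 kb of a gene end. Among 93 RefSeq promoter windows that a member overlapped, of 32851 in all, the SOX core CATTGT was found on either strand in 17.2% (10.9 to 26.1), against 12.6% of all windows. The GC box GGGGCGGGG, which KLF and SP factors bind, was found in 8.60% (4.42 to 16.1), against 11.4% of all windows. The octamer ATTTGCAT of OCT factors was in none of the 93, which allows up to 3.97%, and in 1.74% of all windows. The ESRRB letters TCAAGGTCA were also in none, against 0.423% of all windows. The octamer and ESRRB intervals hold the share of all windows, as do those of the GC box and the SOX core. The 93 windows belong to 50 genes and to 50 members, and windows of the same gene can overlap. They are not independent, so these intervals are too narrow. A match of letters is not a bound site, and the members away from promoters were not searched.

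Members were narrower and weaker than ES cell sites open at 6h, and most lay far from gene ends. Their median width was 284 bp and their median 36h score 240, from 31 to 3861. Medians were 275 bp and 194 for opened sites without an ES cell peak, 563 bp and 1070 for ES cell sites open at 6h, and 425 bp and 555 for all 36h peaks in both arms. Of the members, 52.7% lay inside a gene and 63.8% (62.5 to 65.1) over 10 kb from any gene end, with a median distance of 17542 bp. The share over 10 kb was 74.4% (73.4 to 75.3) for opened sites without an ES cell peak and 64.3% (64.1 to 64.6) for all 36h peaks in both arms. The interval of members held the share of all 36h peaks. The share near a gene end was 6.48% for members, 3.88% (3.48 to 4.32) for opened sites without an ES cell peak, 5.13% (4.98 to 5.28) for closed ES cell sites and 29.2% (28.8 to 29.6) for ES cell sites open at 6h. Intervals here and below are 95% Wilson intervals. They cover counting error only. The ES cell, 12h, 36h and 60h groups have a single list each, so replicates could not be compared and no test was run. Members were spread over 3446 nearest genes within 50 kb, of which 2764 had a single member.

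At the edge of the rule, 29 members shared under 20 bp with their ES cell peak, and 7 peaks were left out for a 6h overlap under 20 bp. A 6h peak lay within 200 bp of 100 members and within 1 kb of 1106. A further 1604 peaks met every condition but the second 36h list, with a median score of 118. Absence from a list means that no peak passed the authors' threshold, not that the site was closed. In these bulk samples, fewer cells with a site open and less opening per cell cannot be told apart. The 6h lists were longer than the 36h list, with 177275 peaks in the nascent arm and 203188 in the mature arm.

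Opening was already visible at 12h for most members. At 12h, 64.6% had a peak in the bulk list of the nascent arm and 57.4% in that of the mature arm. Peaks in both 12h lists were found at 2467 members (48.3%, 46.9 to 49.6), in 1 list at 1303 and in neither at 1341 (26.2%). All 36h peaks in both arms, most of which had a 6h peak, gave 91.8% in both lists and 3.32% in neither. The 12h lists differed in length, with 199056 peaks in the nascent arm and 179656 in the mature arm. Opened sites without an ES cell peak had a peak in both 12h lists at 38.6% (37.5 to 39.6). The excess came from the nascent arm, where the shares were 64.6% and 48.7%, and the mature arm gave 57.4% and 57.6%. At matched 36h score the order was not the same in both arms. All 36h peaks were cut into 10 deciles by score, with decile 1 the weakest. In decile 5, 80.7% (77.4 to 83.6) of members and 68.4% (64.9 to 71.7) of the other opened sites had a 12h peak in the nascent arm. In the mature arm the shares were 75.2% (71.7 to 78.5) and 82.0% (79.0 to 84.6). The nascent arm had members higher with intervals that did not overlap in deciles 1 to 6, and the mature arm had them lower so in deciles 3 to 5.

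**Figure D1:**
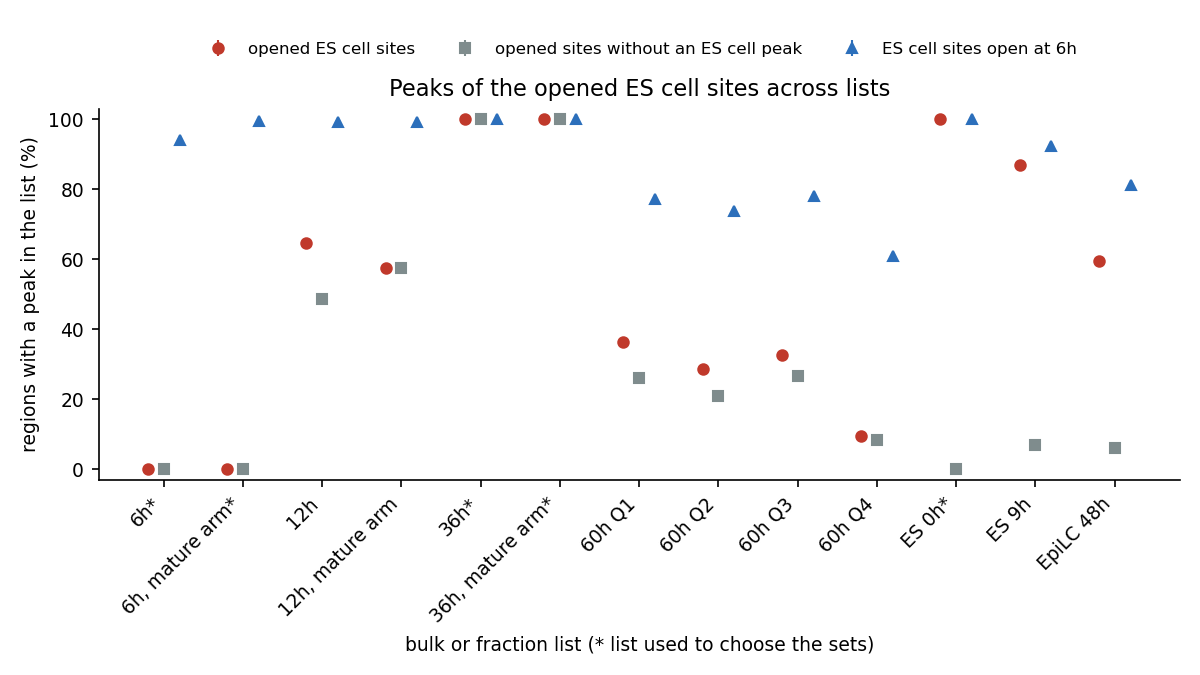
Share of regions with a peak in each bulk or fraction list (percent, with 95% Wilson intervals, mostly smaller than the symbols) for the 5111 opened ES cell sites, the 8148 opened sites without an ES cell peak and the 48684 ES cell sites open at 6h. Lists marked with an asterisk chose the sets; the members stand at 64.6% and 57.4% in the 12h lists, and between 9.61% and 36.3% in the fractions at 60h.

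The strongest members were open from 12h through to 60h. The 10 with the highest 36h score each had a peak in both 12h lists and in all 4 fractions. The top score, 3861, belonged to a 797 bp peak 30777 bp from Lnpep (chromosome 17, 17496150 to 17496946), with an ES cell score of 4622 and no EpiLC peak at 48h. The next lay 1664 bp from Vpreb1 (chromosome 16, 16866116 to 16866737), which encodes a surrogate light chain of the pre-B cell receptor, and scored 3122. The third, 175459 bp from the homeobox gene Meis2 (chromosome 2, 116242996 to 116243650), scored 2706. The names give position only. Another 4 lay inside Ptprf, Brd8, Gid4 and Ap4b1, and Fam83d, Pp2d1 and Dnajc5b were the nearest genes of the rest. Brd8, a bromodomain subunit of the NuA4 acetyltransferase complex, had its peak at chromosome 18, 34605711 to 34606550.

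Fewer than 1 in 2 members had a peak in any sorted fraction at 60h. A peak was found in Q1 at 36.3% of members, in Q2 at 28.6%, in Q3 at 32.5% and in Q4 at 9.61%. All 36h peaks in both arms gave 52.2%, 48.7%, 54.8% and 42.8%, and opened sites without an ES cell peak 26.0%, 20.9%, 26.6% and 8.35%. No fraction had a peak at 2833 members, and all 4 had one at 407 (7.96%, 7.25 to 8.74). The most common pattern with a peak was Q1, Q2 and Q3 without Q4, at 697 members. Q4 alone was found at 18. The fraction lists were short, with 57762 to 73518 peaks, and Q4 was the shortest. The length of a list and its fraction cannot be told apart here.

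Presence at 12h and at 60h went together. Of members with both 12h peaks, 56.3% (54.3 to 58.2) had a peak in any fraction, against 38.6% (36.0 to 41.3) of those with 1 and 28.7% (26.4 to 31.2) of those with neither. In all 4 fractions the shares were 13.2%, 4.07% and 2.16%. The groups also differed in 36h score. Its median was 328 for members with both 12h peaks, 217 for those with 1 and 165 for those with neither. The part of peak strength in this order was not tested.

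**Figure D2:**
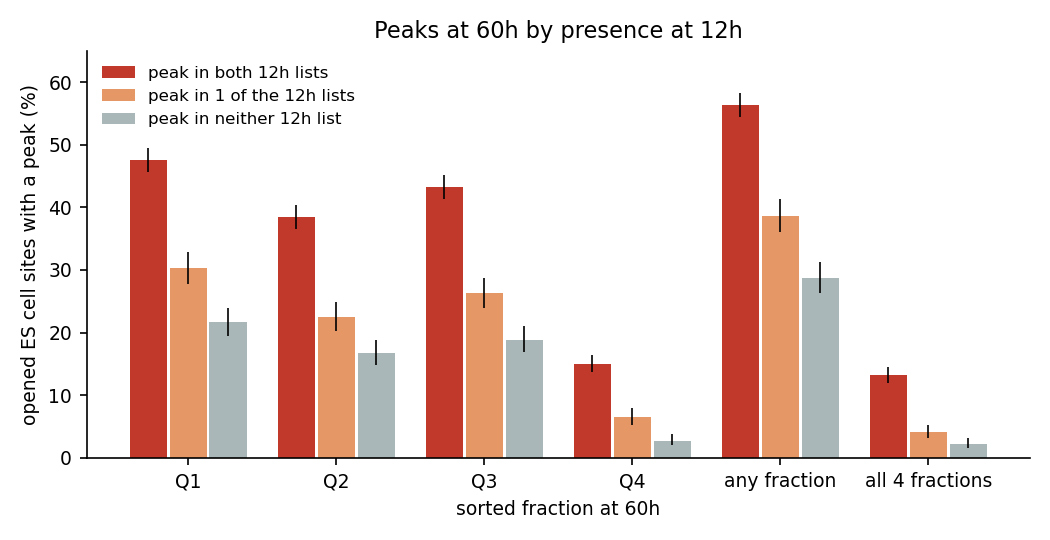
Share of opened ES cell sites with a peak at 60h (percent, bars with 95% Wilson intervals) in each sorted fraction, in any fraction and in all 4, for members with a peak in both 12h lists (2467), in 1 (1303) or in neither (1341). Bars fall in that order in every fraction, from 56.3% to 28.7% for any fraction.

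At matched 36h strength, the order of members and the other opened sites differed between Q1 and Q4. In score decile 5, Q1 held a peak at 58.5% (54.6 to 62.3) of members, 47.9% (44.3 to 51.6) of opened sites without an ES cell peak and 63.2% (61.7 to 64.6) of ES cell sites open at 6h. Members stood above the other opened sites in Q1, with intervals that did not overlap, in deciles 2 to 5. In decile 7 the shares in Q1 were 88.1%, 84.6% and 92.5%, and the interval of the members, 82.8 to 91.8, held the share of the other opened sites. In Q4 the shares in decile 5 were 12.7% (10.3 to 15.5), 15.4% (12.9 to 18.2) and 22.8% (21.6 to 24.1). Members and the other opened sites had 6.03% (4.60 to 7.86) and 10.4% (8.74 to 12.3) in Q4 in decile 4, and 71.0% (61.1 to 79.2) and 61.4% (50.9 to 70.9) in decile 8. Decile 4 was the only one in which their Q4 intervals did not overlap.

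Newly copied chromatin rarely showed a peak at these sites. At 36h only 28 members (0.548%, 0.379 to 0.791) had a nascent peak and 190 (3.72%, 3.23 to 4.27) a mature peak. ES cell sites open at 6h had them at 27.1% and 50.2%, and opened sites without an ES cell peak at 0.0491% and 1.93%. These libraries come from the same cells as the 36h bulk. The lists were short, with 15200 nascent and 38418 mature peaks, and presence followed bulk strength. At matched strength members held fewer mature peaks than ES cell sites open at 6h, with intervals that did not overlap in deciles 3 to 9. The highest decile held too few members to compare. The shares were 7.09% (4.95 to 10.1) and 22.1% (21.0 to 23.3) in score decile 6, and 48.4% (38.5 to 58.4) and 66.3% (65.1 to 67.4) in decile 8. Members and the other opened sites did not separate in decile 6, with 7.09% and 5.25% (3.52 to 7.76). At 12h, 39 members had a nascent peak and 322 a mature peak, and at 6h 1 and 0.

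Among the 28 members with a nascent peak at 36h, the 5 highest nascent scores lay in few places. The highest, 281, was on chromosome Y (259105 to 259271). The next were inside the gene models of Gm17660 (203), Duxf3 (176) and Sfi1 (129 for each of 2 members). Duxf3 belongs to the Dux family, which exists in tandem copies and in mouse marks the early embryo. Sfi1 also has near-identical copies. Reads in such copies can be placed at any of them, so the values of Duxf3 and Sfi1 are uncertain.

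In ES cells, the members included many sites that stayed accessible as the naive state was left. At 9h, 86.9% had a bulk peak, and at 48h, in EpiLC, 59.4% (58.0 to 60.7). Both held at 2943 members, 9h alone at 1496, 0h alone at 580 and 48h without 9h at 92. The EpiLC share was 81.4% for ES cell sites open at 6h and 49.4% for closed ES cell sites. ES cell nascent chromatin had a peak at 11.5% of members at 0h and mature chromatin at 57.6%, against 3.43% and 29.4% of closed ES cell sites. ES cell sites open at 6h stood higher than members on both, at 30.03% and 65.8%.

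The ES cell score of a site went with its opening. Among 97068 ES cell peaks with no peak at 6h, 5.01% were opened by 36h. The share was 1.79% (1.58 to 2.04) in decile 1 of all ES cell scores, the weakest, and 15.6% (14.6 to 16.8) in decile 10. The median ES cell score was 811.5 for ES cell peaks that a member overlapped and 284 for closed ones. It was 971 for the 56944 ES cell peaks with a 6h peak that no member overlapped. These need no 36h peak and are more than the sites open at 6h used above. In decile 10, 55.9% (52.1 to 59.7) of opened peaks and 47.0% (45.2 to 48.7) of closed peaks also had an ES cell nascent peak. In deciles 1 to 8 the intervals of the nascent share overlapped, with 6.56% (4.94 to 8.66) of opened and 5.20% (4.68 to 5.76) of closed peaks in decile 8. The EpiLC share in decile 9 was 76.8% (73.6 to 79.7) for opened peaks and 67.2% (65.9 to 68.5) for closed ones. In deciles 1 to 5 and 7 the intervals of opened and closed peaks overlapped on the EpiLC share, as they did in decile 10. ES cell presence was part of the rule, so these shares describe the set.

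**Figure D3:**
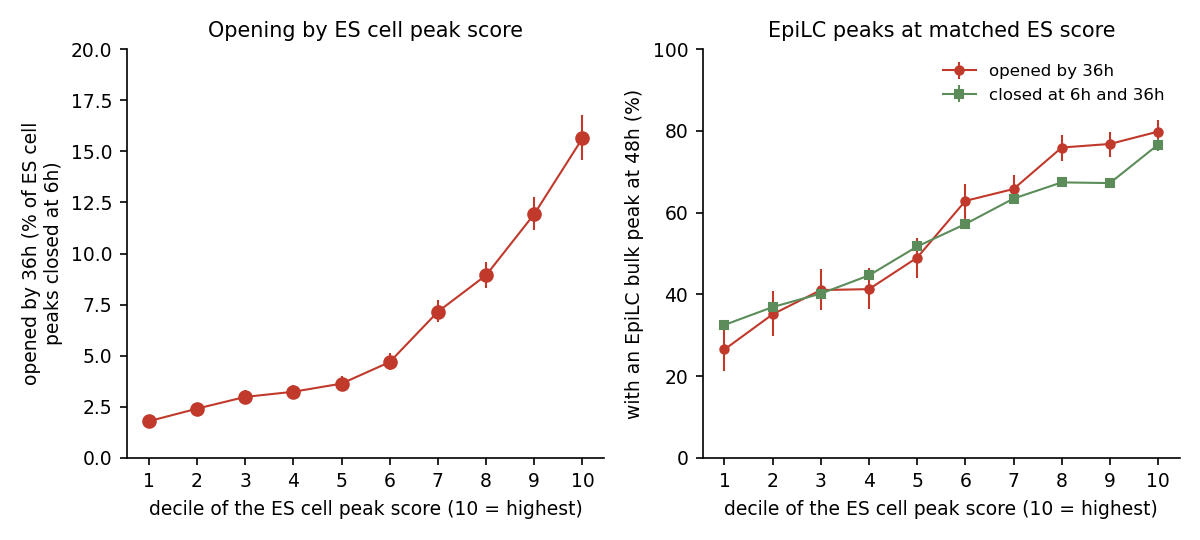
Left, share of ES cell peaks closed at 6h that were opened by 36h, and right, share with an EpiLC bulk peak at 48h for opened and closed ES cell peaks, both in percent with 95% Wilson intervals, by decile of the ES cell score. Opening runs from 1.79% to 15.6%, and on the right the opened peaks stand above the closed ones in deciles 6, 8 and 9, with intervals that do not overlap.

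Genes of the naive pluripotency network had few opened sites among many that stayed closed. The 17 genes had 355 ES cell peaks within 50 kb, each assigned to its nearest gene. Of these, 14 (3.94%) were opened by 36h, 71 (20.0%) were open at 6h and 267 (75.2%) were closed at both times. Over all genes 3.30% were opened, 39.1% open at 6h and 55.4% closed. An ES cell peak that a member overlapped was counted as opened, also where it overlapped a 6h peak. With the peaks counted as open at 6h left out, 4.93% were opened near naive genes and 5.41% near all genes. Fibroblast and mesenchymal genes had 45.5% of their 235 ES cell peaks open at 6h, and macrophage and blood genes had no member. These lists describe positions, and no test was run on them.

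Members lay near 9 of the 17 naive genes. Tfcp2l1, a transcription factor of the naive network, had 3, of which 2 were inside the gene. The member 14648 bp from a gene end (chromosome 1, 118642571 to 118642938) scored 907 at 36h and 3784 in ES cells, with peaks in Q1, Q2 and Q3. The one at 118648013 to 118648408 scored 516 at 36h and had no 12h peak. The one outside the gene, at 118625422 to 118625920, 2003 bp from the gene, scored 738 and had both 12h peaks. Klf2, a Krüppel-like factor of the same network, also had 3, at 10494, 7963 and 2662 bp from the gene, all without a 12h peak and with 36h scores of 145, 65 and 274.

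The other 7 naive genes had 1 or 2 members each. Nr5a2, a nuclear receptor that can stand in for OCT4 in reprogramming, had 2 with scores of 264 and 296. The member near Klf5 scored 358 and was in Q1 and Q2. Prdm14, a repressor of differentiation genes in ES cells, had 1 at 28188 bp (chromosome 1, 13084804 to 13085240) that scored 248 at 36h and 7406 in ES cells. Single members of Tet2, Tcl1, Esrrb and Pou5f1 scored 165, 87, 70 and 52. The Pou5f1 member, 1981 bp from the gene that encodes OCT4, had both 12h peaks. Reads in the coding exons of Pou5f1 can also come from the cassette. Of the 14 members, 3 had both 12h peaks, 3 had 1 and 8 had neither. None was seen near Nanog, Sox2, Klf4, Zfp42, Tbx3, Dppa3, Fgf4 or Nr0b1.

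**Figure D4:**
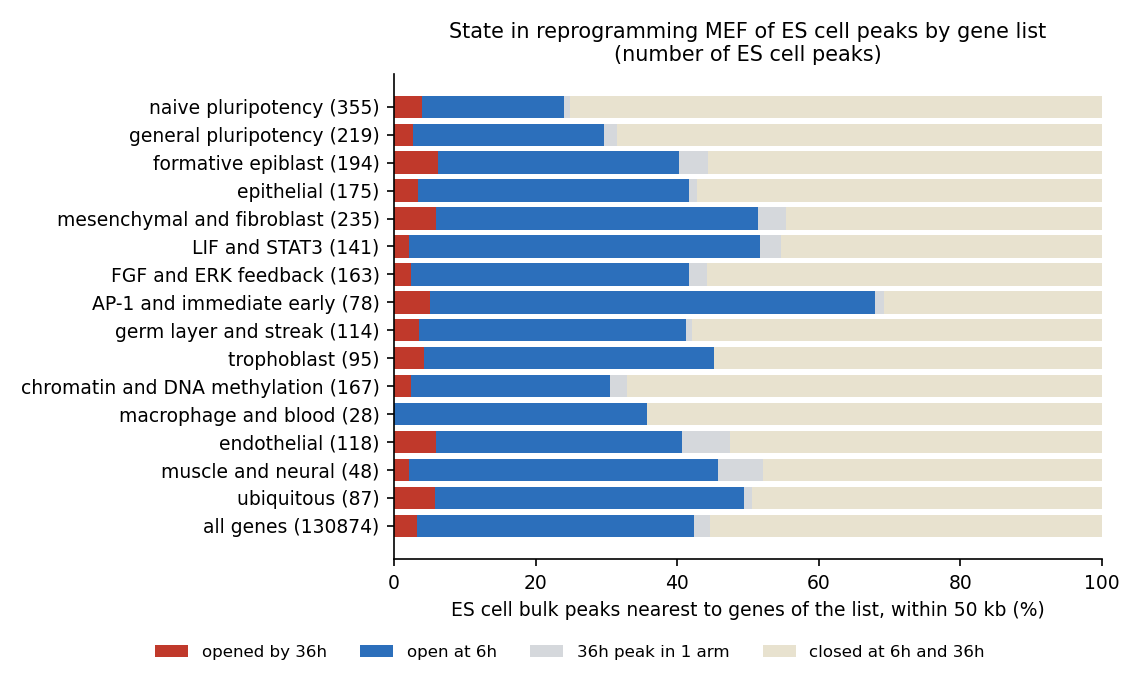
State in reprogramming MEF of the ES cell bulk peaks nearest to genes of each list, within 50 kb, as percent of the number given in brackets. Naive pluripotency genes have 75.2% of their ES cell peaks closed at 6h and 36h and 3.94% opened, and all genes 55.4% and 3.30%.

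Other pluripotency genes added 18 members. The 18 general pluripotency genes had 6, among them a Lin28b member (36h score 394), a Tet1 member at 5202 bp (284) and a Mycn member (256). The 18 formative genes had 12, or 6.19% of their 194 ES cell peaks, beside 3.30% over all genes. The highest was inside Etv5, an ETS factor downstream of FGF signalling (chromosome 16, 22412415 to 22412827), with a score of 1164 and a peak in all 4 fractions. Otx2, a transcription factor of the formative epiblast, had 3 (194, 93 and 240), and the de novo DNA methyltransferase gene Dnmt3b had 1 (376).

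Genes outside the pluripotency network had members as well. Fibroblast and mesenchymal genes had 15, and 5.96% of their 235 ES cell peaks were opened. The share was 5.93% for endothelial genes and 5.75% for ubiquitous genes. It was 5.13% for AP-1 and immediate early genes and 3.43% for epithelial genes, beside 3.30% over all genes. With peaks counted as open at 6h left out, it was 13.8% for AP-1 and immediate early genes and 10.9% for fibroblast and mesenchymal genes. It was 10.2% for ubiquitous, 9.38% for formative, 9.09% for endothelial and 5.56% for epithelial genes, beside 5.41% over all genes. Some lists lay below all genes, among them LIF and STAT3 genes (4.23%) and chromatin and DNA methylation genes (3.33%). Each list holds few opened peaks, and the shares were not tested. Runx2, a regulator of bone formation, had 4, all inside the gene, and 2 of them shared 1 ES cell peak. Fn1, which encodes fibronectin, had 3, of which one 20081 bp away (chromosome 1, 71673361 to 71673901) scored 1197 at 36h and 7063 in ES cells. Snai1, a driver of the epithelial to mesenchymal change, had 2 (1050 and 343). Of the epithelial list, 5 genes of 21 had 6 members, including Grhl2 (394), Dsp (353) and Epcam (264). Another of the 5 was Cdh2 (165), the N-cadherin gene, usually counted as mesenchymal, and the shares of the list include its peaks. None lay near Cdh1, Krt8, Krt18 or Ocln. Tfap2c, a factor of trophoblast and germ cells, had 2, of which one scored 1519 and lay in all 4 fractions (chromosome 2, 172516568 to 172517161). Tet3, a DNA demethylase gene, had a member 10489 bp away with a score of 1478 and no peak in ES cells after 0h. LIF receptor gene Lifr held 3 (291, 194 and 60).

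The genes with most members were long. Etl4 had 11, Msi2 (an RNA-binding protein) 9, and Arid1b (a subunit of the BAF remodelling complex) and Tenm4 (a teneurin) 7 each. Slc6a6, Rarb, Ptprg, Nedd4l and Prkaa2 had 5 each. Etl4 spans 900 kb and Msi2 379 kb, and the median coding gene 17.1 kb. Etl4 held 78 peaks of both 36h arms and Msi2 45. Prkaa2, a catalytic subunit of AMPK, was shorter, at 80.2 kb, and held 8 such peaks. The taurine transporter gene Slc6a6 held 15. All 11 members of Etl4 had ES cell peaks at 9h and 48h. Msi2 held a member in all 4 fractions that scored 1495 (chromosome 11, 88534359 to 88534804).

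The aphidicolin comparison sets induced MEF in which DNA copying was inhibited beside induced MEF in which it was not. Of the members, 57.1%, 68.2% and 65.4% had a peak in the 3 aphidicolin libraries, against 47.7%, 48.3% and 43.1% in the 3 untreated libraries. The groups did not overlap. The aphidicolin lists were longer, with 148292 to 163947 peaks against 116939 to 129546. With the strongest 120000 peaks of each list (116939 in the shortest), the shares were 38.5%, 40.1% and 40.8% with aphidicolin and 41.8%, 43.7% and 43.1% untreated. The order thus turned, and the groups again did not overlap. Exact permutation of 3 libraries against 3 cannot give a p below 0.1, and none is given. All 36h peaks of both arms gave 84.3% to 88.9% with aphidicolin and 75.2% to 77.6% untreated in the whole lists, and 76.7% to 78.0% and 74.4% to 75.6% at equal length.

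Read counts over consensus regions gave calls in both directions. The count table holds regions with a peak in all 3 libraries of either group, and 2754 members overlapped 1 or more of them, in 2784 regions. After aphidicolin 475 member regions were higher and 445 lower (edgeR's quasi-likelihood test, Benjamini-Hochberg adjusted p below 0.05 over 138996 regions). That is 17.1% and 16.0%, beside 18% higher and 17.9% lower of all regions tested. Both shares were thus near those of all regions. Members were weaker, with a median log2 CPM (library-scaled counts) of 0.94 against 1.82 for all regions. At matched strength the shares differed. In each of quintiles 1 to 4 of log2 CPM, a smaller share of member regions than of all regions was higher and a larger share lower. In quintile 3, 14.7% of member regions and 20.8% of all regions were higher, and 23.0% and 9.42% were lower. Opened sites without an ES cell peak also had a larger share lower than all regions in quintiles 1 to 4, at 13.4% in quintile 3. Unlike members, they had a larger share higher than all regions there as well, at 25.1% in quintile 3. The median log2 fold change was 0.01 for members, 0.02 for all regions, 0.20 for opened sites without an ES cell peak and -0.16 for ES cell sites open at 6h. Changes were small. In a test for a change of more than 1.5-fold, 11 member regions were higher and 4 lower, beside 430 and 95 of all regions.

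How a region entered the table bears on these counts. Of the 2784 member regions, 1080 had a peak in all 3 aphidicolin lists but not in all 3 untreated lists, 144 the reverse, and 1560 in all 6. A separate fit, scaled on the regions with all 6 peaks alone, called 201 member regions higher and 247 lower, beside 16523 and 15902 of all 100668 regions. Without aphidicolin library b the counts were 311 and 269, beside 15282 and 15185 of all regions. Without library c they were 294 and 312, beside 16040 and 15971. Scaling also moved the split. Of called member regions, 51.6% were higher with TMM scaling, 77.2% with library totals (726 higher, 214 lower) and 22.6% with offsets that follow region strength (190 and 651). Of all called regions, 79.2% were higher with library totals and 50.7% with these offsets, and TMM gave 25061 higher and 24874 lower. Members were thus near all regions with TMM and library totals, and below them with the offsets. Library totals moved the median log2 fold change of all regions to 0.18, and the TMM values are relative to a median near 0.

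Members with no 12h peak had more higher calls after aphidicolin. Of their 327 regions, 101 (30.89%) were higher and 27 (8.26%) lower, beside 18% and 17.9% of all regions tested. Of the 1851 regions of members with both 12h peaks, 260 (14.05%) were higher and 333 (17.99%) lower. The late ones were weaker, with a median log2 CPM (library-scaled counts) of 0.38 against 1.11. In the fit over all 138996 regions, the split was not seen among those with a peak in all 6 lists. Of 80 such regions of the late members, 6 (7.5%) were higher and 15 (18.8%) lower. Of 1225 of members with both 12h peaks, 119 (9.71%) were higher and 270 (22.0%) lower. All 100668 regions with a peak in all 6 lists gave 12.0% and 23.4%. Weak regions leaned to higher calls across the table. In quintile 1 of log2 CPM, the weakest, 20.8% of member regions and 29.3% of all regions were higher. In quintile 4 38.5% of member regions and 17.5% of all regions were lower. Opened sites without an ES cell peak had 33.7% higher in quintile 1 and 28.3% lower in quintile 4.

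**Figure D5:**
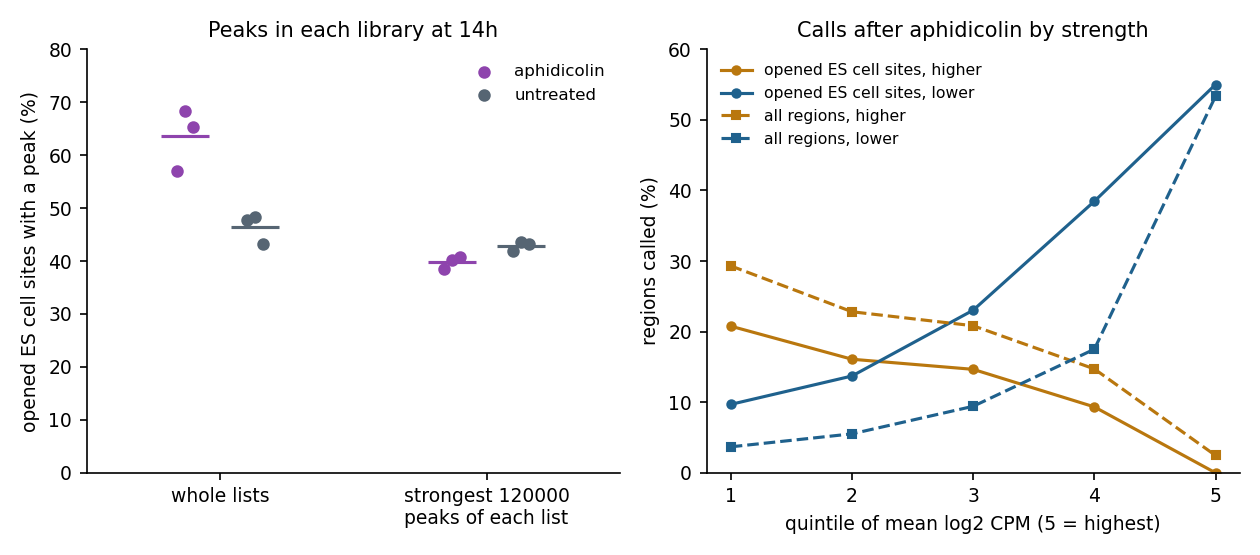
Left, percent of opened ES cell sites with a peak in each library at 14h (points, with the group mean as a line), for whole lists and for the strongest 120000 peaks; aphidicolin stands above untreated with whole lists and just below it at equal length. Right, percent of regions called higher or lower after aphidicolin by quintile of mean log2 CPM, for member regions and all regions tested; in quintile 4 38.5% of member regions and 17.5% of all regions were lower.

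The largest changes are given among 51 higher and 132 lower member regions that passed the threshold, lay above the median log2 CPM of all regions and had groups that did not overlap. Groups did not overlap in the higher direction for 22.2% of member regions and 23.7% of all regions, and in the lower direction for 22.5% and 22.9%. Gene positions and distances given for the named regions are those of the member that each overlaps, and coordinates and CPM are those of the counted region. A counted region can reach beyond its member, so its reads need not all lie in the member. Libraries a, b and c are the columns of the count table in the order of their number. CPM values are after TMM scaling.

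Of the 20 regions named for the size of their change, the one with the largest gain lay 86892 bp from Cry1, a repressor of the circadian clock (chromosome 10, 85271950 to 85272373). It had 4.01, 4.57 and 5.15 CPM with aphidicolin and 1.95, 2.34 and 2.22 CPM untreated. Every aphidicolin library was above every untreated one, and the log2 fold change was 1.08 ± 0.14 (SE, edgeR adjusted p = 7.44e-05). A member lay 167 bp from an end of Cdkn1a, which encodes the cell cycle inhibitor p21. Its region (chromosome 17, 29100507 to 29101239) had 5.68, 4.74 and 5.14 CPM with aphidicolin and 2.57, 2.76 and 3.85 CPM untreated. Its log2 fold change was 0.76 ± 0.14 (edgeR adjusted p = 0.00072), and its 36h peak had none at 12h. A region inside Sdk1, an adhesion molecule gene, had 7.46, 6.58 and 7.78 CPM with aphidicolin, against 4.23, 4.07 and 4.17 CPM untreated, a log2 fold change of 0.80 ± 0.11. The other 7 gains, 0.75 to 0.97, lay inside Oprm1, Ccdc73 and Tusc3, 26033 bp from the Polycomb gene Phc1, and 89123 to 469432 bp from Ptchd4, Epm2a and Olfm4. The Olfm4 and Ptchd4 regions entered the table through the aphidicolin lists, with a peak in 2 of the 3 untreated lists, and the other 8 had a peak in all 6 lists.

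The region with the largest loss lay inside Tppp3, a tubulin-binding protein gene (chromosome 8, 105469432 to 105469636). It had 3.43, 3.92 and 3.41 CPM with aphidicolin and 8.12, 8.26 and 7.32 CPM untreated, a log2 fold change of -1.14 ± 0.11 (edgeR adjusted p = 1.21e-05). A region 1049 bp from Gpx4, which encodes a glutathione peroxidase that removes lipid peroxides (chromosome 10, 80045758 to 80046098), had 2.51, 2.66 and 2.45 CPM with aphidicolin and 4.32, 5.23 and 4.82 CPM untreated. Plekho1 had a region 431 bp away (chromosome 3, 95988183 to 95988371) with 3.54, 4.40 and 3.74 CPM with aphidicolin and 7.70, 6.95 and 7.25 CPM untreated. These log2 fold changes were -0.91 ± 0.12 and -0.90 ± 0.11. The other 7 losses, -0.79 to -0.73, were inside Aopep, Lonp1, Sfi1 and Slc1a5 and near Ddx6, Rad51b and Myh9. The Rad51b region entered through the untreated lists, with a peak in 2 of the 3 aphidicolin lists. At Sfi1, which lies among near-identical copies, untreated library c stood apart at 7.27 CPM, beside 4.52 and 3.85 CPM in untreated libraries a and b.

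Near listed genes, the share of member regions called was close to that of all regions. Of 48 tested, 17 (35.4%) were called in either direction, beside 35.9% of all 138996 regions. Of the 14 naive members, 5 had a tested region, of which none was higher and 1 was lower. That one was the Tfcp2l1 member without a 12h peak, at -0.70 (edgeR adjusted p = 0.022). Both tested AP-1 and immediate early members were lower, at Jun (-0.72, adjusted p = 0.00013) and Fosb (-0.51, adjusted p = 0.00516). Of 10 tested fibroblast and mesenchymal members none was higher and 2 were lower, at Col6a1 and Col5a1, and 17.9% of all regions were lower. Each list holds few regions, and nothing is read from its count. Higher calls were seen at Kdm4c, a histone demethylase gene (1.06, adjusted p = 0.00258), Tet3 (0.35), Grhl2 (0.58) and Lifr (0.74). The Lifr region had a peak in the 3 aphidicolin lists and in no untreated list, and the Kdm4c region in the 3 aphidicolin lists and 1 untreated list. Both entered the table only through the group in which they were called higher. Epcam, an epithelial adhesion gene, had a lower region (-0.52). The 17 called regions near listed genes, 6 higher and 11 lower, kept their direction in all 233 values computed under the alternatives, and 50 of these values no longer passed the threshold. With library totals the Tfcp2l1 region was no longer called (-0.54), nor was it without aphidicolin library a or b or untreated library a (-0.68 to -0.40). With offsets that follow region strength the Grhl2 (0.40), Lifr (0.33) and Tet3 (0.29) regions were no longer called. Without aphidicolin library b the Grhl2 (0.48), Lifr (0.62) and Tet3 (0.30) regions were not called either, and the Lifr call was lost without untreated library b too (0.61). The Tet3 call was also lost with DESeq2 (0.34) and on leaving out any library but untreated library c. Across all genes, of 2335 tested member regions within 50 kb, 341 (14.6%) were higher and 414 (17.7%) lower.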

How the data were processed

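Accessibility was measured by ATAC-seq and repli-ATAC-seq. The submitters' processing notes name MACS2 2.2.0 and Bowtie2 2.2.5, cutadapt 2.2.0, SAMtools 1.4.1, bedtools 2.26.0 and bcl2fastq 2.19.1, and the genome build mm10. Neither the transposase shift nor the counting tool is named in the sources used.

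The authors deposited peak lists with a score per peak. Per the peak names, the lists at 6h, 12h and 36h come from merged replicates, those of the fractions are consensus lists scored in 1 library, and those of the aphidicolin experiment are per sample. No source says whether ES cell lists were pooled. The 6h, 12h and 36h bulk lists of the nascent arm were assigned by elimination. A second file the authors deposited holds raw counts of reads over 139000 regions in 6 libraries, 55158844 to 78677381 with aphidicolin and 41183769 to 49440524 untreated. No source ties a column number to a sample, and whether replicates came from separate cultures is not stated, so p-values reflect how far these libraries differ, in part perhaps for technical reasons. No 2 libraries agreed within sampling noise.

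Overlaps were computed with bedtools 2.31.1. Counts were tested with edgeR 4.0.16 (quasi-likelihood, TMM, filterByExpr, two-sided, adjusted p below 0.05) in R 4.3.3, which kept 138996 regions. DESeq2 1.42.0 was an alternative. The test was checked on simulated data. Genes came from a RefSeq table of GRCm38.p6, which shares coordinates with mm10 and holds no strand, so a gene end is either end of a gene model. With no genome sequence at hand, motifs were searched in RefSeq promoters in place of the 300 bp windows planned. Members, gene lists and tests were chosen with earlier results of these data known. Named are naive genes with a member within 50 kb, up to 4 genes of each other list, the 10 genes with most members, the 10 highest 36h scores, the 5 highest nascent scores, and 10 regions in each direction after aphidicolin. Regions named by genes beyond 50 kb are named for position. A gene that the naming rule selects among those with most members is not reported here.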

Additional observations from a re-analysis of the deposited data

How the results depend on the processing

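The set held 4914 members under the stricter overlap (0.5 of either peak), 4819 at a score of at least 60 and 5126 with 36h peaks of the mature arm, and under these settings its shares at 12h and near gene ends stayed within the intervals given. The EpiLC share was 57.1% with the stricter overlap. At a score of at least 60 the share in all 4 fractions was 6.60% and the share with a nascent peak 0.270%. After aphidicolin, higher and lower member regions numbered 726 and 214 with library totals, 190 higher with offsets that follow region strength (651 lower), 201 and 247 when the fit held just the regions found in all 6 lists, and 11 and 4 when a fold of 1.5 was tested. Leaving out 1 library gave 294 to 560 higher and 269 to 456 lower, beside 15282 to 29925 and 15185 to 28012 of all regions. DESeq2 called 382 and 388, beside 19849 and 23359 of all regions, so 49.6% and 45.9% of calls were higher. The replicate block by column number gave 548 and 520, beside 30014 and 30446, with 51.3% and 49.6% of calls higher. Libraries of the same number correlated at 0.26, 0.01 and 0.15 in their deviations from the group means, untreated library b went slightly better with aphidicolin library c (0.02), and no source says that a number pairs cultures. With the strongest 120000 peaks of each list the shares were 38.5%, 40.1% and 40.8% in aphidicolin libraries and 41.8% and 43.7% in the first 2 untreated ones. The cause of these shifts was not tested. The 20 named regions kept their direction under every alternative that could be computed, 277 values in all, and 19 of these values no longer passed the threshold. Motif windows of 200 bp were not run. Short nascent and fraction lists limit what absence from them can show.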

Other observations

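Members were found on every chromosome that carried 36h peaks. Their share of the 36h peaks of both arms was between 3.36% on chromosome 13 and 5.00% on chromosome 17 among the autosomes and 3.54% on chromosome X, and it was 26.3% on chromosome Y, where 5 of 19 peaks were members. The RefSeq promoters that members overlapped had a median GC content of 52.0%, against 45.0% for those of opened sites without an ES cell peak, 62.0% for ES cell sites open at 6h and 52.7% for all promoter windows.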
